A study of Mus musculus with 6 samples.

Results

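The genes described are the UDP-glucuronosyltransferases (Ugt), the cytosolic sulfotransferases (Sult) and the glutathione S-transferases (Gst) of mouse liver. They were taken from the count table by gene symbol alone, as Ugt1a, Ugt2a, Ugt2b and Ugt3a genes, as Sult genes, and as Gst genes of the classes alpha, kappa, mu, omega, pi, theta and zeta. This gave 65 genes of 40803 in the table, 21 Ugt, 21 Sult and 23 Gst genes. The study compared livers of male C57BL6 mice on normal feed that had received rAAV8-Scramble (3 mice) or rAAV8-Hnf1aos1 (3 mice), with 1 library per mouse. Both groups therefore carried a liver-directed recombinant adeno-associated virus of serotype 8 with an EGFP reporter and a short hairpin RNA under the U6 promoter, injected through the tail vein at about 6 weeks of age and examined 4 weeks later. The hairpin of the rAAV8-Hnf1aos1 group (below, the knockdown group) targeted the long noncoding RNA Hnf1aos1 and the hairpin of the rAAV8-Scramble group (the scramble group) had no mouse target. The U6 promoter is active in any cell that takes up the virus, so the hairpin was not limited by its promoter to hepatocytes.

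These enzymes carry out phase II of drug and hormone metabolism, in which a polar group is attached to a substrate so that it can leave in bile or urine. Ugt enzymes sit in the endoplasmic reticulum and transfer glucuronic acid from UDP-glucuronate to bilirubin, bile acids, steroids and drugs. Sult enzymes of the cytosol transfer sulfate from the activated donor PAPS to phenols, hydroxysteroids and bile acids. Gst enzymes couple reduced glutathione to electrophiles, including lipid peroxidation products. The families are large because of tandem gene duplication, and hepatocytes hold most of the liver's conjugating capacity.

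The counts of mouse genes summed to 14704746 to 16532510 in scramble livers and to 18021614 to 19462398 in knockdown livers. Of the 65 members, 46 passed the filter on low counts and were tested (19 Ugt, 7 Sult and 20 Gst genes). The other 19 had at most 5 raw counts in any library, and 8 of them had 0 in all 6. The targeted RNA, Hnf1aos1, had normalized counts (counts scaled to the mean effective library size) of 512, 491 and 620.3 in scramble livers and 278, 258 and 433 in knockdown livers. The groups did not overlap, but the difference of -0.74 on the log2 scale (SE 0.195) had an adjusted p of 0.0625 in edgeR's quasi-likelihood test and was not called. In bulk liver, fewer cells of a type and less RNA per cell cannot be told apart.

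At an adjusted p under 0.05, 6 members differed between the groups, 3 higher and 3 lower in the knockdown group. Throughout, a gene is called, or rose or fell, by edgeR unless another tool is named. The 6 were Ugt2b38, Gstm1 and Gstp2 on the higher side and Ugt1a2, Ugt1a5 and Gsta4 on the lower side. The 6 were 13.0% of the 46 members tested, beside 6.32% of all 16327 genes tested by edgeR with Benjamini-Hochberg adjustment over all of them (3.09% higher and 3.23% lower). Only 2 of the 6, Gstp2 and Ugt1a2, also lay past 1 on the log2 scale, where 2.16% of all genes tested lay. At an unadjusted p under 0.05 there were 23 of the 46 members, beside 23.4% of all genes tested. The normalized counts of the groups did not overlap for 17 members, 10 higher and 7 lower, beside 28.9% of all genes tested (15.2% higher and 13.7% lower). DESeq2 called 10 of the members, beside 7.4% of the genes it tested, and limma's voom called 4, beside 5.19%.

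Most of the differences were small. The log2 fold change lay within 0.5 of 0 for 37 of the 46 members tested and for 82.3% of all genes tested. Its median was -0.01 over the 46 members, -0.07 over the Ugt, 0.10 over the Sult and -0.03 over the Gst genes, beside -0.00 over all genes. With library sizes taken from the spike-in RNAs, which raised the median of all genes by 0.20 on the log2 scale, the family medians were all above 0, at 0.13, 0.30 and 0.17. Of the 6 called genes, Ugt2b38 was called whichever of the 6 libraries was left out, and under each of 10 other settings, and Ugt1a2 in 5 of the 6 and under all 10. The other 4 were each called in 1 of the 6 fits without a library. Without scramble replicate 3, Ugt2b38 alone of the members was called, beside 0.619% of all genes tested in that fit. Without knockdown replicate 3 the count was 12, beside 11.2% of all genes tested in that fit.

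**Figure D1:**
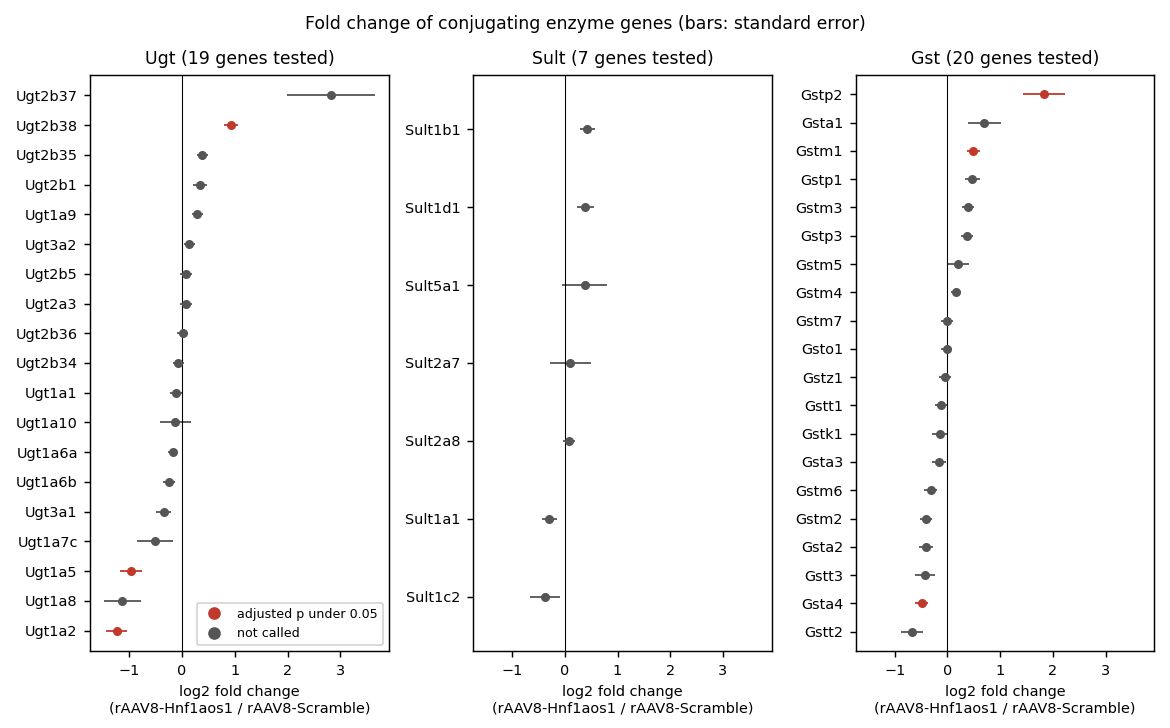
Log2 fold change of the knockdown over the scramble group (x axis) for each tested Ugt, Sult and Gst gene (y axis, one panel per family), with bars for the standard error of edgeR's fit, and red points for genes with an adjusted p under 0.05. The 6 red points are Ugt2b38, Ugt1a5, Ugt1a2, Gstp2, Gstm1 and Gsta4, and Ugt2b37 has the highest value (2.83) with the widest bar.

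**Figure D2:**
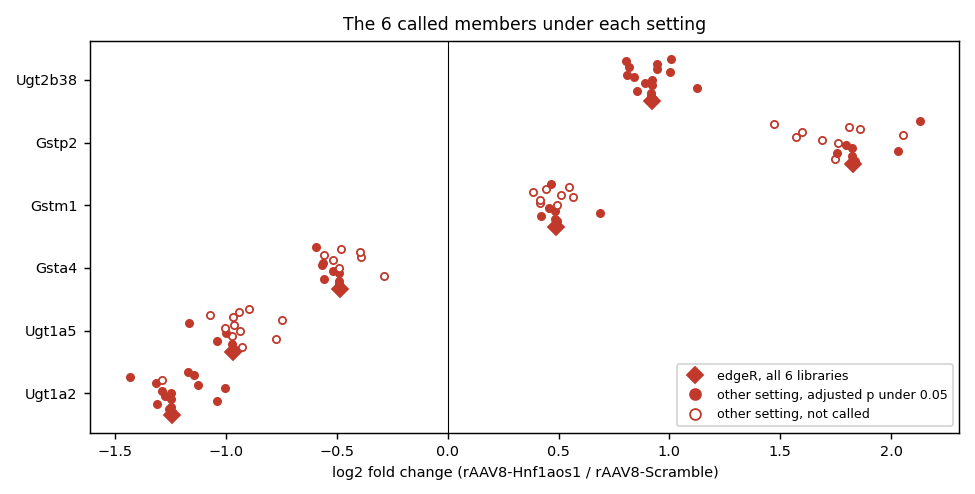
Log2 fold change (x axis) of the 6 called genes (y axis) in the comparison with all 6 libraries (diamonds) and under each other setting of library scaling, filter, test or left-out library (circles, filled where the adjusted p was under 0.05). No circle crosses 0, and the open circles lie mostly with Gstp2, Gstm1, Gsta4 and Ugt1a5.

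Per transcript length, the Ugt2b genes were the most abundant glucuronosyltransferases. Deposited TPM values (a transcript abundance scaled to gene length and library) summed to 3729 ± 273 (SD, n = 3) over the Ugt genes in scramble livers and to 3773 ± 82.2 in knockdown livers. The highest scramble levels were those of Ugt2b5 (1166 ± 114 TPM), Ugt2b36 (497 ± 45.5 TPM) and Ugt2b1 (443 ± 73.8 TPM), which glucuronidate steroids, bile acids and drugs. Ugt2b5 had normalized counts of 18874, 17181 and 14863 in scramble livers and 17274, 17662 and 18951 in knockdown livers. Those groups overlapped, with a log2 fold change of 0.08 (95% confidence interval -0.17 to 0.33, adjusted p = 0.711 in edgeR). For Ugt2b36 the counts were 7622, 7789.9 and 6235 against 7045, 7493 and 7259, a log2 fold change of 0.01 (95% confidence interval -0.23 to 0.25, adjusted p = 0.965 in edgeR).

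The third abundant member, Ugt2b1, had 7646, 10515 and 7858 normalized counts in scramble livers and 11046, 11621 and 10269 in knockdown livers. Its second scramble library lay within the range of the knockdown libraries. The log2 fold change was 0.34 (SE 0.13, adjusted p = 0.142 in edgeR), and without scramble replicate 2 the adjusted p was 0.047.

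**Figure D3:**
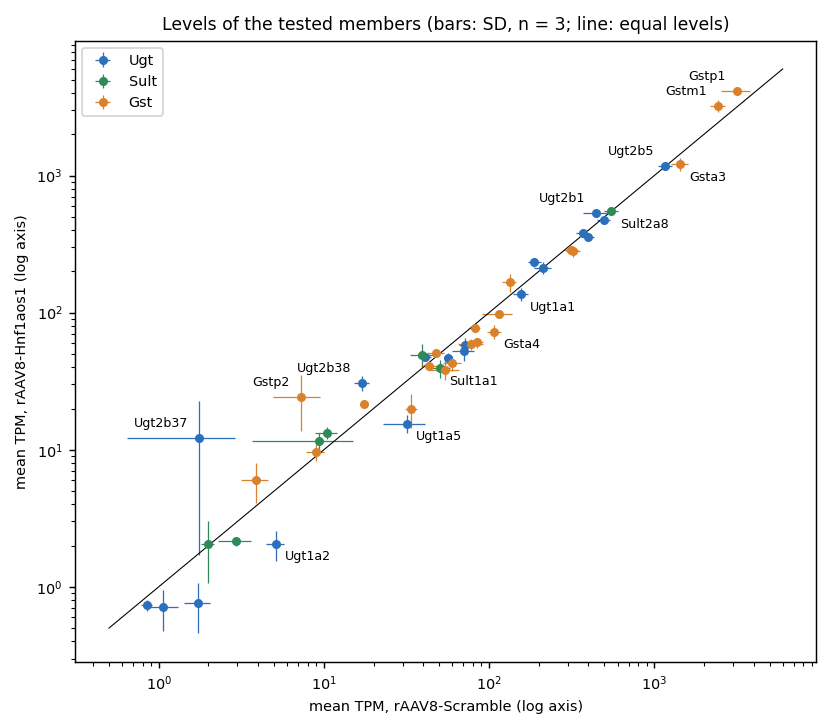
Mean TPM of each tested Ugt, Sult and Gst gene in the scramble group (x axis, log scale) against the knockdown group (y axis, log scale), with bars for the SD (n = 3) and a line of equal levels. The abundant genes, such as Gstp1 (3160.2 against 4170.3 TPM) and Ugt2b5 (1166 against 1172 TPM), lie close to the line, and Ugt2b37 and Gstp2, among the low ones, lie farthest above it.

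Ugt2b38 rose in the knockdown group, and its call held under all 17 other settings tried, the summing of near copies elsewhere included. It lies on the minus strand at chr5:87409942-87424203 (GRCm38, GENCODE annotation) in the Ugt2b cluster and is annotated as protein-coding. Normalized counts were 273, 258 and 213 in scramble livers and 450.1, 546 and 416 in knockdown livers. The lowest knockdown library was above the highest scramble library by over 100 counts. The mean was 248 ± 31 in scramble livers and 471 ± 67.7 in knockdown livers (SD, n = 3), 1.9 times as high. The log2 fold change was 0.92 (SE 0.134, adjusted p = 0.0046 in edgeR), and the adjusted p lay between 0.000353 and 0.0463 as each library was left out. Of its transcript's 100-base windows, 24.2% also occur in another gene, where a read of that length alone has more than 1 possible origin. The transcripts of Ugt2b38 and the abundant Ugt2b5 were 93.9% identical. Whether reads of Ugt2b5 were counted to Ugt2b38 was not tested.

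On chromosome 5, Ugt2a3 (log2 fold change 0.07) lies between Ugt2b38 and Ugt2b37. Ugt2b37, a gene of low level, had the largest fold change of all 46 but was not called. Normalized counts were 16.4, 45 and 15.4 in scramble livers and 357, 96 and 95.1 in knockdown livers. The groups did not overlap, and knockdown replicate 1 was far above the other two. The log2 fold change was 2.83 (SE 0.836, 95% confidence interval 0.66 to 5.01, adjusted p = 0.133 in edgeR). Without knockdown replicate 1 it was 1.89, with an adjusted p of 0.0318. DESeq2 gave an adjusted p of 0.0109 for all 6 libraries.

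The promoters of Ugt2b38 and Ugt2b37 are shown because these genes had the highest fold changes of the Ugt genes. Both are RefSeq windows on GRCm38.p6, from 250 bases before to 50 after the start site, minus strand, at chr5:87424154-87424453 for Ugt2b38 and chr5:87254739-87255038 for Ugt2b37. Capitals mark matches to TGANTCA (an AP-1 site) and to TGTTTAC or its reverse complement (a FOXA site).
Ugt2b38: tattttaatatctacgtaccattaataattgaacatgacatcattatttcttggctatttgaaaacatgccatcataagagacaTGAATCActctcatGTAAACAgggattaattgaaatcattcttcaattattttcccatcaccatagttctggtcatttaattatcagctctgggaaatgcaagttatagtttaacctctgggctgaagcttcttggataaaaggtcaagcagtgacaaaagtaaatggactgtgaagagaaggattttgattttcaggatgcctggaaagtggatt
Ugt2b37: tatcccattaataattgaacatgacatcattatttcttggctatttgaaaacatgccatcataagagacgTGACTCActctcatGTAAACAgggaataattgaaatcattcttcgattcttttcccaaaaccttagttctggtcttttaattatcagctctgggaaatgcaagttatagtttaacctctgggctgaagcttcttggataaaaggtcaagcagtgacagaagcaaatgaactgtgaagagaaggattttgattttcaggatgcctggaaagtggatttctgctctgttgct
The windows were 86.9% identical and the transcripts 93.1%. In each, the AP-1 letters come before the FOXA letters, at positions -166 and -152 from the start site in Ugt2b38 and at -180 and -166 in Ugt2b37. The letters of the FOXA site are in 3.65% of all 32851 promoters of this length and in 5 of the 56 members with a promoter (Sult1d1, Ugt1a2, Ugt2b35, Ugt2b37 and Ugt2b38).

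Of the other Ugt2b genes, Ugt2b35 had normalized counts of 5300.3, 5038 and 4233 in scramble livers and 6595, 6294 and 6090.1 in knockdown livers. The groups did not overlap, yet the log2 fold change of 0.38 (SE 0.106) missed the threshold with an adjusted p of 0.0562 in edgeR. DESeq2 called it (0.0214). Of the 7 Ugt2b genes tested, 6 had a log2 fold change above 0, with Ugt2b34 at -0.07. With spike-in library sizes Ugt2b34 was at 0.13, and with library totals alone Ugt2b36 was at -0.06. The 3 other tested genes outside the Ugt1a locus, Ugt2a3, Ugt3a1 and Ugt3a2, lay between -0.35 and 0.13 and were not called. Ugt3 enzymes use other sugars than glucuronic acid. Ugt2a1 and Ugt2a2, known from the olfactory epithelium, had at most 2 raw counts in a library.

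**Figure D4:**
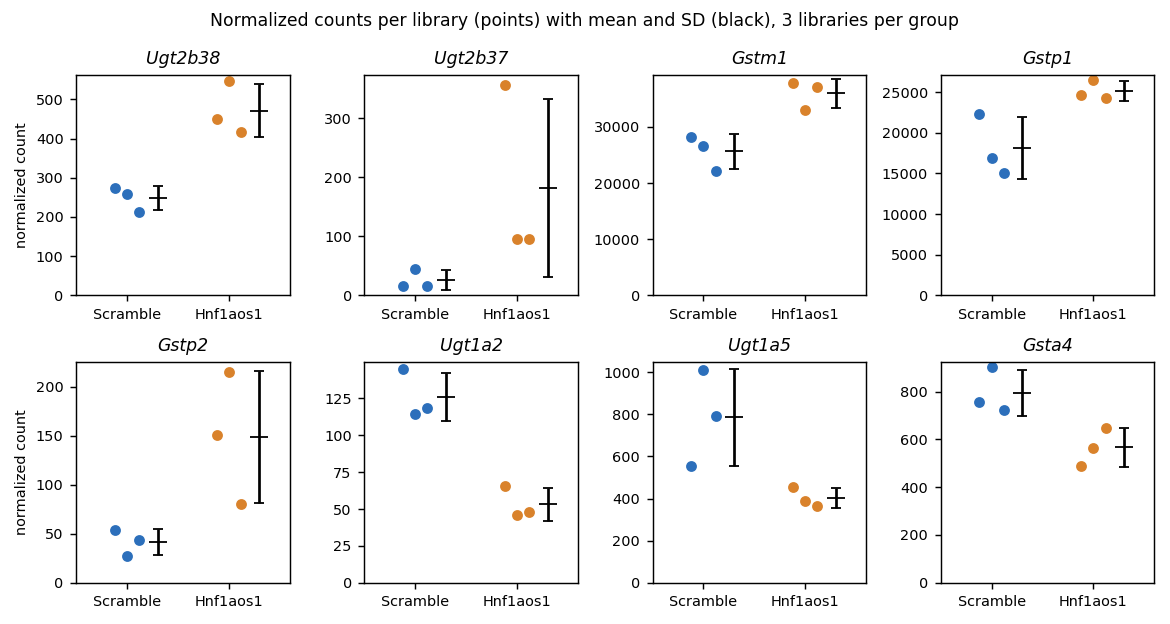
Normalized counts (y axis, linear from 0) of 8 genes in each library of the scramble (blue) and knockdown (orange) group, with the mean and SD (black, n = 3). All 8 genes have groups that do not overlap, and Ugt2b37 and Gstp2 show the widest spread within the knockdown group.

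The Ugt1a locus on chromosome 1 makes 9 of the tested transcripts from alternative first exons, each with its own promoter, spliced to the same final exons. It encodes the enzymes that clear bilirubin (Ugt1a1), small phenols (Ugt1a6a and Ugt1a6b) and bulkier phenols and drugs (Ugt1a9 and others). Because the final exons are shared, between 57.2% and 100% of the 100-base windows of each Ugt1a transcript also occur in another gene. How the deposited TPM treats the shared exons is not given in the sources used here. The Ugt1a genes make up 366 ± 27.2 and 308 ± 10.1 of the Ugt sums of TPM in the scramble and knockdown groups (SD, n = 3).

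In the knockdown group, 2 of the 9 fell, beside 3.23% of all genes tested. Ugt1a2 (plus strand, chr1:88200601-88218997) had 145, 114 and 119 normalized counts in scramble livers and 65.8, 45.6 and 48 in knockdown livers. Every knockdown library lay well below every scramble library. The mean fell to 42.2% of the scramble level, a log2 fold change of -1.24 (SE 0.199, adjusted p = 0.00762 in edgeR). Without scramble replicate 3 the adjusted p was 0.0506, and the log2 fold change ranged from -1.43 to -1.13 as each library was left out.

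Ugt1a5 (plus strand, chr1:88166012-88218997) had 552, 1012 and 793 normalized counts in scramble livers and 453, 389 and 362 in knockdown livers. The scramble libraries were widely spread, and the lowest of them was still above all knockdown libraries. The mean fell from 786 ± 230.1 to 401 ± 46.6 (SD, n = 3), a log2 fold change of -0.97 (SE 0.212, adjusted p = 0.0419 in edgeR). The call held only without scramble replicate 1 (adjusted p = 0.0029). It was lost without scramble replicates 2 and 3 (0.0529 and 0.16) and without knockdown replicates 1, 2 and 3 (0.103, 0.147 and 0.101). It also missed the threshold in voom (0.0531), with spike-in library sizes (0.0533), without the filter (0.0532) and in limma on log2(TPM + 0.1) and log2(TPM + 1) (0.0526 and 0.0508).

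Among the rest of the locus, Ugt1a8 had 34.9, 30.7 and 23.1 normalized counts against 19.1, 10.5 and 10.9, at low depth, with a log2 fold change of -1.13 (adjusted p = 0.0773 in edgeR). Ugt1a9 was the only Ugt1a gene with a log2 fold change above 0, at 0.29 (SE 0.102, adjusted p = 0.115 in edgeR). Its counts were 1096, 1069 and 878 in scramble livers and 1279.8, 1267 and 1167 in knockdown livers. Ugt1a1, the bilirubin enzyme, had 3521, 4357 and 3716 counts against 3059, 3621 and 4026. These overlapped, with a log2 fold change of -0.11 (95% confidence interval -0.38 to 0.15, adjusted p = 0.606 in edgeR). In all, 8 of the 9 Ugt1a genes were below 0, with a median of -0.25. With spike-in library sizes, Ugt1a1, Ugt1a6a and Ugt1a10 were above 0 as well, at 0.08, 0.02 and 0.07.

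Read as shares of all counts on the Ugt1a genes, a measure that does not depend on library scaling, Ugt1a2 and Ugt1a5 together took 8.55%, 11.9% and 11.3% in the scramble libraries and 7.0%, 5.74% and 5.16% in the knockdown libraries. The shares did not overlap, and their mean was 10.6% ± 1.78 against 5.97% ± 0.943 (SD, n = 3). The share of Ugt1a9 was 11.9% ± 1.38 in scramble livers and 16.2% ± 1.37 in knockdown livers, and that of Ugt1a1 was 45.1% ± 1.63 and 46.6% ± 4.79. With the 9 genes summed, normalized counts were 8149, 9468 and 8069 against 7406, 7560.4 and 7950.4. The sum had a log2 fold change of -0.16 (SE 0.101) and was not called (adjusted p = 0.352 in edgeR).

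**Figure D5:**
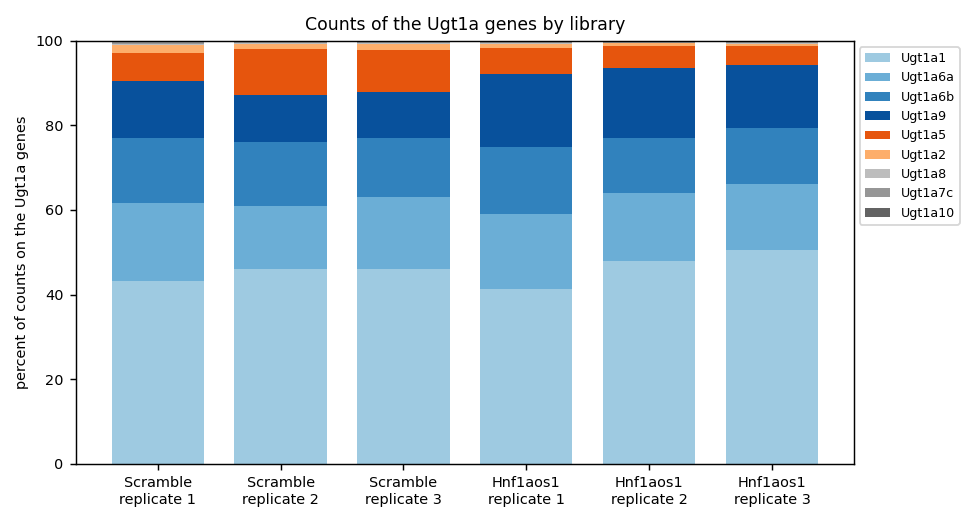
Share of the counts on the Ugt1a genes (y axis, percent) taken by each Ugt1a gene in each of the 6 libraries (x axis). Ugt1a2 and Ugt1a5 (orange) together take 8.55% to 11.9% in the scramble and 5.16% to 7.0% in the knockdown libraries, while Ugt1a1 (lightest blue) takes the largest part in every library.

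The promoters of the genes that fell, Ugt1a2 and Ugt1a5, are shown to let their separate starts be compared. They are RefSeq windows of the same kind on the plus strand of GRCm38.p6, at chr1:88200361-88200660 and chr1:88165762-88166061. Capitals mark TGTTTAC (FOXA) in Ugt1a2 and GCGTG (the core of a xenobiotic response element) in Ugt1a5.
Ugt1a2: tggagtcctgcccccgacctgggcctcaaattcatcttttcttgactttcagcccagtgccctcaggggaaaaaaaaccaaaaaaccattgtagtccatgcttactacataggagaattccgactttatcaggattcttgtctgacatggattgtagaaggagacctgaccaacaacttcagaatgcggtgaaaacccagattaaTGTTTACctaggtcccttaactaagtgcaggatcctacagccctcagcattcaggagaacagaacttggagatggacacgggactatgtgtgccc
Ugt1a5: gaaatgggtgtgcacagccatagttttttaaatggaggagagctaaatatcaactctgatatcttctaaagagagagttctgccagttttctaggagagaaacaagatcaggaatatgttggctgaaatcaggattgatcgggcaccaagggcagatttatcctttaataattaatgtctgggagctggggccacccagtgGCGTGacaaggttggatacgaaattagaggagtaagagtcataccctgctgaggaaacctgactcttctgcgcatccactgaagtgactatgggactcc
The windows of Ugt1a2 and Ugt1a5 were 48.5% identical, far less than those of Ugt2b38 and Ugt2b37 above. The marked letters begin at positions -45 and -49 from the start sites.

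No sulfotransferase was called by edgeR, DESeq2 or limma's voom. Of the 7 tested, 2 (Sult1b1 and Sult1d1) had an unadjusted p under 0.05 in edgeR, beside 23.4% of all genes tested. TPM summed over the Sult genes was 664 ± 71.3 in scramble livers and 666 ± 20.2 in knockdown livers (SD, n = 3). Most of it came from Sult2a8, an enzyme that sulfates bile acids, at 549 ± 53.1 and 548 ± 34.5 TPM. Normalized counts of Sult2a8 were 9753, 11957 and 10216 in scramble livers and 10684, 10788 and 12124 in knockdown livers. The groups overlapped throughout, with a log2 fold change of 0.07 (95% confidence interval -0.17 to 0.32, adjusted p = 0.738 in edgeR).

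Sult1a1, the main phenol sulfotransferase, followed with 50.8 ± 7.55 TPM in the scramble group. Its normalized counts were 1433, 1954 and 1601 against 1366, 1560.3 and 1145, a log2 fold change of -0.29 (SE 0.138, adjusted p = 0.231 in edgeR). Sult1d1, which sulfates catecholamines, had 39.5 ± 6.1 TPM in the scramble group and normalized counts of 699, 870.4 and 616 against 1043, 1064 and 757. The groups of both genes overlapped. The log2 fold change of Sult1d1 was 0.39 (SE 0.16, adjusted p = 0.181 in edgeR), and without knockdown replicate 3 its adjusted p was 0.0193.

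Next to Sult1d1 on chromosome 5 lies Sult1b1, which sulfates thyroid hormones. It was the only one of the 7 Sult genes tested whose groups did not overlap, beside 28.9% of all genes tested. It had 256, 243 and 183 normalized counts in scramble livers and 278, 349 and 291 in knockdown livers. Its log2 fold change was 0.43 (SE 0.147, adjusted p = 0.107 in edgeR). The other 3 tested, Sult5a1, Sult2a7 and Sult1c2, had log2 fold changes of 0.38, 0.10 and -0.38 and were not called. The 14 Sult genes that were not tested include Sult1e1, the estrogen sulfotransferase, with 2 raw counts in knockdown replicate 1 and 0 in the other libraries, and Sult2a1 to Sult2a6 and Sult3a1, with at most 2 in a library. In mice, Sult2a1 and Sult3a1 are known to be expressed mainly in female liver.

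The glutathione transferases were the most abundant of the families per length and held both directions of change. Their TPM summed to 9273, 8650.2 and 7688 in the scramble libraries and to 10143.6, 9893.5 and 9909 in the knockdown libraries. The sums did not overlap (8537 ± 798 against 9982 ± 140.1, SD, n = 3), and no test was made of them. Most of each sum came from Gstp1, Gstm1 and Gsta3, at 3160.2 ± 620.4, 2433 ± 242 and 1429 ± 172 TPM in the scramble group.

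In the mu class, which acts on epoxides and quinones, Gstm1 rose in the knockdown group. It lies on the minus strand at chr3:108012255-108017973. Normalized counts were 28209, 26660.5 and 22137 in scramble livers and 37788, 33068 and 37062 in knockdown livers. All knockdown libraries were above all scramble libraries. The mean was 1.4 times as high, a log2 fold change of 0.49 (SE 0.12, adjusted p = 0.0389 in edgeR). The call held only without knockdown replicate 3 (adjusted p = 0.038) and was lost without scramble replicates 1, 2 and 3 (0.0516, 0.0854 and 0.174) and without knockdown replicates 1 and 2 (0.0838 and 0.076), as it was in limma on log2(TPM + 0.1) and log2(TPM + 1) (0.078 and 0.0794).

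The 7 mu genes stand side by side on chromosome 3 and did not share a direction. Gstm3 had 1343, 1246 and 1061 normalized counts against 1803, 1534 and 1451, a log2 fold change of 0.39 (SE 0.113, adjusted p = 0.0651 in edgeR). Gstm2 had 613, 738 and 662 against 442, 553 and 527, a log2 fold change of -0.40 (SE 0.111, adjusted p = 0.056 in edgeR). Neither pair of groups overlapped, and edgeR called neither gene. Gstm2 passed the threshold in limma on log2(TPM + 0.1) and log2(TPM + 1) (0.042 and 0.0419), with library totals (0.0286), with a minimum mean of 50 counts (0.0453) and without the filter on low counts (0.00919). Gstm3 passed it with spike-in library sizes and without the filter. Over the class, 4 genes were above 0 and 3 below, with Gstm7 at -0.01, or at 0.19 with spike-in library sizes.

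In the pi class, the 3 genes on chromosome 19 all had log2 fold changes above 0 and groups that did not overlap. Of all genes tested, 28.9% had groups that did not overlap, 15.2% higher. Of the pi genes edgeR called 1, Gstp2, while DESeq2 called Gstp1 as well. Beside this, edgeR called 6.32% and DESeq2 7.4% of all genes they tested. Gstp1, the abundant member, had 22339, 16853 and 15044 normalized counts in scramble livers and 24583, 26541 and 24216 in knockdown livers. Scramble replicate 1 came close to the knockdown libraries. The log2 fold change was 0.47 (SE 0.141, adjusted p = 0.0698 in edgeR), and without scramble replicate 1 the adjusted p was 0.0215. DESeq2 gave Gstp1 an adjusted p of 0.0152 with all 6 libraries.

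Gstp2 lies on the minus strand at chr19:4040285-4046023 and was present at a far lower level. It had 53.4, 27.4 and 44 normalized counts in scramble livers and 151, 215 and 80.6 in knockdown livers. The mean rose from 41.6 ± 13.1 to 149 ± 67.1 (SD, n = 3), 3.55 times as high, a log2 fold change of 1.83 (SE 0.392, adjusted p = 0.0383 in edgeR). The call held only without knockdown replicate 3 (adjusted p = 0.000187). It was lost without scramble replicates 1, 2 and 3 (0.0703, 0.105 and 0.165), without knockdown replicates 1 and 2 (0.106 and 0.0562) in limma's voom (0.0911) and in limma on log2(TPM + 0.1) and log2(TPM + 1) (0.0848 and 0.0777).

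Gstp1 and Gstp2 are near copies. Their transcripts were 90.4% identical, 63.5% of the 100-base windows of Gstp2 also occur in another gene, and Gstp2 held 0.229% ± 0.0641 of the pi-class counts in scramble livers and 0.577% ± 0.235 in knockdown livers (SD, n = 3). Whether reads of Gstp1 were counted to Gstp2 was not tested. The 3 pi genes summed had a log2 fold change of 0.48 (SE 0.141, adjusted p = 0.0674 in edgeR). Gstp3, without shared windows, had 157, 153 and 157 normalized counts against 207, 203 and 192. Its libraries agreed closely within each group, and the log2 fold change was 0.37 (SE 0.119, adjusted p = 0.0896 in edgeR).

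The promoters of Gstp1 and Gstp2 are shown because the genes differ so much in level. They are RefSeq windows on the minus strand of GRCm38.p6, at chr19:4037863-4038162 and chr19:4042172-4042471. Capitals mark TGAGTCA, a match to the AP-1 letters TGANTCA on both strands.
Gstp1: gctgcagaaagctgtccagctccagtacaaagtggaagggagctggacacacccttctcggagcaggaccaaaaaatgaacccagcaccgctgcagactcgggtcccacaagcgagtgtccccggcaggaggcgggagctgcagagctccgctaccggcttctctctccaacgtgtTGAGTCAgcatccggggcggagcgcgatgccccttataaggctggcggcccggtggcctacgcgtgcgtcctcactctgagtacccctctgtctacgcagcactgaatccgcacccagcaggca
Gstp2: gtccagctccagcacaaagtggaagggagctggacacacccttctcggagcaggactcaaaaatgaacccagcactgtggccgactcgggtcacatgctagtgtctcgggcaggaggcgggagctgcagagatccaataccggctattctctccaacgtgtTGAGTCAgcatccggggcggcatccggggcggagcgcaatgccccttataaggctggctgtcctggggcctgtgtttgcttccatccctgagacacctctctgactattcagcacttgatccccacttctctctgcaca
The windows were 76.4% identical and hold the same letters, TGAGTCA, at positions -74 and -89 from the start sites. That of Gstp1 also holds GCGTG at position -13, which that of Gstp2 does not.

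In the alpha class, Gsta4, which detoxifies the lipid peroxidation product 4-hydroxynonenal, fell in the knockdown group. It lies on the plus strand at chr9:78182774-78209349. Normalized counts were 756, 903 and 724 in scramble livers and 487, 564 and 648 in knockdown livers. The groups were separate but close, with the highest knockdown library at 648 and the lowest scramble library at 724. The mean fell to 71.3% of the scramble level, a log2 fold change of -0.49 (SE 0.122, adjusted p = 0.0403 in edgeR). The call held only without knockdown replicate 3 (adjusted p = 0.00771) and was lost without scramble replicates 1, 2 and 3 (0.0744, 0.122 and 0.108), without knockdown replicates 1 and 2 (0.0939 and 0.121) and with spike-in library sizes (0.153).

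Gsta3, the abundant alpha gene of mouse liver and known for its action on aflatoxin epoxide, had 17122, 20779 and 15839.5 normalized counts against 13439.6, 17684 and 16872. The groups overlapped, with a log2 fold change of -0.16 (95% confidence interval -0.46 to 0.14, adjusted p = 0.506 in edgeR). Gsta1 and Gsta2, whose transcripts were 96.7% identical, had log2 fold changes of 0.70 and -0.41 (adjusted p = 0.196 and 0.096 in edgeR). Summed, they were at -0.32 with an adjusted p of 0.151 in edgeR, and whether reads were split unevenly between them was not tested.

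The theta class genes, Gstt1, Gstt2 and Gstt3, were all below 0, at -0.12, -0.68 and -0.42, and edgeR called none. DESeq2 called Gstt2 (adjusted p = 0.014). Gstt1 was above 0, at 0.08, with spike-in library sizes. Gstt2 had 419.6, 458 and 472 normalized counts in the scramble group against 185, 313 and 346 in the knockdown group, with no overlap and an adjusted p of 0.0896 in edgeR. Gstk1, a mitochondrial and peroxisomal enzyme, Gstz1, which acts in tyrosine breakdown, and Gsto1 had log2 fold changes of -0.15, -0.05 and -0.01. Each of these 3 was above 0 with spike-in library sizes. Gsta5, Gstt4 and Gsto2 had at most 4 raw counts in a library and were not tested.

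Sequence letters known from regulators of these genes were counted in the 300-base RefSeq windows of 56 members, on both strands. The antioxidant response element core TGACNNNGC, bound by Nrf2, was in 3 (Gsta3, Gstm5 and Gstm7), beside 12.4% of all 32851 promoters. Only these letters were matched, and variants of the core were not counted. GCGTG was in 11 of the 56, beside 32.4%, and TGANTCA in 13, beside 7.81%. The shared descent of neighbouring members means that these windows are not independent of each other, and a match is only a match of letters.

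The genes around the conjugating enzymes were counted from 8 lists. None of the tested genes was called among those supplying UDP-glucuronate or cleaving glucuronides (0 of 5), activating or removing sulfate (0 of 10), making and recycling glutathione (0 of 14) or encoding microsomal glutathione transferases (0 of 5). At an unadjusted p under 0.05 in edgeR these lists held 1, 2, 3 and 1 genes, beside 23.4% of all genes tested. DESeq2 called Ugdh alone among the genes of these lists, and limma's voom called none. Ugdh, the enzyme that makes UDP-glucuronate, had a log2 fold change of 0.53 (adjusted p = 0.0839 in edgeR).

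Of 7 exporters of conjugates tested, 6 were below 0 and 2 were called, both lower, beside 6.32% of all genes tested. Abcc2 (Mrp2), which carries glucuronides and glutathione conjugates into bile, had 15570, 13989 and 14396 normalized counts in scramble livers and 9472, 10163 and 12032 in knockdown livers. The groups were well apart, and the log2 fold change was -0.47 (SE 0.114, adjusted p = 0.0353 in edgeR). Abcc4 (Mrp4), of the basolateral membrane, fell from 135 ± 11.6 to 85.1 ± 13.4 (SD, n = 3), a log2 fold change of -0.67 (adjusted p = 0.0432 in edgeR). Among the fits without a library, both calls held only without knockdown replicate 3 (0.00634 for Abcc2 and 0.0378 for Abcc4). In the other 5 the adjusted p was 0.0655 to 0.131 for Abcc2 and 0.0724 to 0.119 for Abcc4. In edgeR both also missed the threshold with spike-in library sizes (0.143 and 0.0788) and with the replicate number as a block (0.0622 and 0.0704). Abcc4 missed it too in limma on log2(TPM + 0.1) and log2(TPM + 1) (0.0877 and 0.0793).

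Beside 6.32% of all genes tested, edgeR called 2 of 13 transcription factors and cofactors of these enzymes, both lower. DESeq2 called these and also Nr1i2 and Rxra, whose log2 fold changes in edgeR were -0.46 and 0.35. Nr1i3 (CAR), a receptor that induces Ugt1a, Sult and Gst genes, had 616, 623 and 584 normalized counts against 335, 475 and 368, a log2 fold change of -0.63 (SE 0.126, adjusted p = 0.0172 in edgeR). Nfe2l2 (Nrf2), the factor of the antioxidant response, had 2170, 1921 and 2047 against 1477, 1486 and 1408, a log2 fold change of -0.49 (SE 0.086, adjusted p = 0.0107 in edgeR). The groups of both were far apart. The call of Nfe2l2 was lost without scramble replicate 3 (0.0736), and that of Nr1i3 without scramble replicate 2 (0.0554) or 3 (0.0846). Hnf4a was at -0.08 and was not called. Of 10 typical targets of these regulators, edgeR called Cyp4a10, a target of PPARα, at -2.75 (adjusted p = 0.0419), a call that held only without knockdown replicate 3 (0.0254, beside 0.0619 to 0.158 without each other library). Without the filter on low counts the adjusted p of Cyp4a10 was 0.0515 in edgeR. DESeq2 called Cyp4a10, Cyp4a14 (-4.39 in edgeR) and Txnrd1. Of the Nrf2 targets in the list, Nqo1 was at -0.15 and Txnrd1 at 0.50 in edgeR. Srxn1, another Nrf2 target, was at 2.19, with 520.2, 548 and 516 normalized counts in the scramble group and 5318, 914 and 984 in the knockdown group. Its groups did not overlap and knockdown replicate 1 stood far above the others, with an adjusted p of 0.248 in edgeR. Cyp2b10, a CAR target, was at 0.88, and Cyp3a11 and Hmox1, also in the list, were at -0.34 and 0.30. None of them was called.

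Of 12 macrophage markers, 4 were called, all higher (Adgre1, Clec4f, C1qa and C1qb), beside 6.32% of all genes tested. The summed normalized counts of all 12 were 3885 to 4616 in scramble livers and 4902 to 6360.2 in knockdown livers. Of 9 skeletal muscle markers, all were below 0 and 1 was called (Actn3, lower), with sums of 1289 to 4655 against 581 to 1271. No endothelial, stellate, lymphocyte or neutrophil marker was called by edgeR, DESeq2 or voom. At an unadjusted p under 0.05 in edgeR these lists held 0, 1, 1 and 0, beside 23.4% of all genes tested. Of the 7 neutrophil markers edgeR tested only Csf3r, and the 7 summed to 46.1 to 71.5 normalized counts in the scramble and 79.7 to 118 in the knockdown group, without overlap. The 10 hepatocyte markers were all tested, 1 was called (Tat, lower), and their sums were 1478430 to 1658430 against 1559340 to 1841510, overlapping between the groups. Of the 6 fits without a library, Adgre1 and C1qb were called in 1, C1qa and Clec4f in 2, Actn3 in 3 and Tat in 5. DESeq2 did not call Adgre1, and voom did not call Adgre1, C1qb or Actn3. The part of these markers in the members' values was not tested.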

How the data were processed

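Liver RNA of 6 mice was sequenced, 3 per group. Reads were trimmed and aligned with STAR to GRCm38 per the paper's methods, and the authors tallied unique exonic alignments by gene in featureCounts to make the deposited counts, which are raw. The submitters' processing notes give GRCm39 as the build. The methods give a poly(A) kit and the labels a ribosomal RNA depletion, and neither the strand setting nor the annotation release of the counting is given in the sources used here. The authors also deposited TPM over the same genes, used for levels between genes and as an alternative. Their normalized counts, and their table of fold changes and p-values, were not used.

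The 92 ERCC spike-in rows (1.18% to 1.52% of a library's counts) were left out. In R 4.3.3 with edgeR 4.0.16, counts were scaled by TMM, filtered with filterByExpr and compared with robust quasi-likelihood fits on the group alone, with Benjamini-Hochberg adjustment over all 16327 genes tested and calls at an adjusted p under 0.05. The biological coefficient of variation was 13.9%, so for well-counted genes the spread between mice rather than depth set the precision. Same-group libraries differed by a chi-square of 7.73 to 31.9 per gene, where sampling noise gives about 1. On simulated data for this comparison (16325 genes) the fit recovered 88% of genes changed by 1 and 100% of those changed by 2 on the log2 scale. Of its calls, 7.39% were unchanged genes. The simulation gave every gene the same dispersion and changed only genes above a minimum mean count. Recovery of genes with low counts or an outlying library was therefore not measured. Alternatives were DESeq2 1.42.0, voom and limma 3.58.1 on log2(TPM + 0.1) and log2(TPM + 1), other scalings and filters, near copies summed, a replicate block, and each library left out. Members and gene lists were chosen with earlier results of these data known. Values are given in full for called members and for the 3 per family with the highest scramble TPM, otherwise where a statement needs them. Promoter windows came from RefSeq (GRCm38.p6), matched by symbol for 56 of 65 members, and gene positions from GENCODE on GRCm38. Shared 100-base windows were counted over GENCODE transcripts. Some genes of the lists, 1 motif and the results that need them are not reported here.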

Additional observations from a re-analysis of the deposited data

How the results depend on the processing

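With all 6 libraries, 1032 genes and 6 members were called. The number over all genes was 3393 with spike-in library sizes, 1902 without the filter on low counts, and 594 and 641 in limma on log2(TPM + 0.1) and log2(TPM + 1). As each library was left out it ran from 103 (without scramble replicate 3) to 1881 (without knockdown replicate 3).

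The Ugt genes called were 3, with 5 in DESeq2, 5 with spike-in sizes and 6 without the filter, and 1 to 4 as each library was left out. For the Sult genes the count was 0, with 2 under spike-in sizes, 1 without the filter and 0 to 1 as each library was left out. The Gst genes called were 3, with 5 in DESeq2, 6 with spike-in sizes and 9 without the filter, and 0 to 7 as each library was left out. Of the pathway lists, 6 genes were called, with 12 in DESeq2, 22 with spike-in sizes and 17 without the filter, and 0 to 17 as each library was left out. With spike-in sizes, 12 of the 13 members called were higher, beside 3033 of the 3393 called over all genes. In the main edgeR fit it was 3 of 6 members, beside 505 of 1032 over all genes. In the fits without a library, fewer samples entered, and further causes were not tested. With the near copies summed, Ugt1a2, Ugt1a5 and Gstp2 had no call of their own, and none of the 4 sums was called.

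With spike-in sizes the median log2 fold changes were 0.13 (Ugt), 0.30 (Sult) and 0.17 (Gst). That of the Sult genes was 0.35 with a minimum mean of 50 counts and 0.044 to 0.31 as each library was left out. That of the Gst genes ran from -0.09 to 0.05 over the same fits. Hnf1aos1 passed the threshold in DESeq2 (-0.74), voom (-0.77), without the filter (-0.74), and in 1 fit without a library, over a range of -1.01 to -0.60.

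The replicate numbers are given by the labels in both groups, but same-numbered libraries did not deviate together (correlations of their deviations of -0.0226, 0.0231 and 0.00321), so the numbers were not taken as pairs. With the replicate number as a block, 878 genes and 6 members were called, 2 of them (Ugt1a2 and Ugt2b38) shared with the fit without the block, and Hnf1aos1 was at -0.77, past the threshold. The other 4 members called under the block were Gstm2 (0.0401), Gstm3 (0.0389), Gstt2 (0.0388) and Gstt3 (0.0323). Not every library correlated best with its own number.

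Members near 0 changed sign. With spike-in sizes, values were 0.035 for Gsta3, 0.074 for Ugt1a10, 0.019 for Ugt1a6a, 0.084 for Ugt1a1, 0.19 for Gstm7, 0.13 for Ugt2b34, 0.048 for Gstk1, 0.081 for Gstt1, 0.15 for Gstz1 and 0.19 for Gsto1. Ugt2b36 was at -0.059 with library totals, at -0.060 in both TPM fits and at -0.021 with a minimum mean of 50. Ugt2a3 was at -0.00093 with library totals and at -0.0051 in both TPM fits. Sult2a7 was at -0.0083 in voom and at -0.076 and -0.026 in the TPM fits. As each library was left out, Gstm7 ran from -0.068 to 0.093, Gstk1 from -0.28 to 0.029, Gstz1 from -0.10 to 0.036, Gsto1 from -0.086 to 0.057, Sult2a7 from -0.24 to 0.41, Ugt2b36 from -0.091 to 0.064, Ugt2a3 from -0.019 to 0.18 and Ugt2b5 from -0.011 to 0.17. None of these was called.

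No called member changed sign under any setting run. Over all tested members and settings there were 652 values with the same direction and side of the threshold, 39 that lost a call, 43 that gained one and 33 that changed sign. Low counts limit Ugt1a8, Ugt1a7c, Ugt1a10, Sult2a7, Sult1c2 and Gsta1, at under 50 per library on average, and shared sequence limits Ugt1a, Gstp2 and Gsta1.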
